A study of Mus musculus with 8 samples.

Results

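The Schlafen genes were examined in Ly6Chigh classical monocytes from mouse spleen, sorted on day 7 after an aortic aneurysm had been induced in Olfr2 knockout (KO) and wild-type (WT) mice. The product of Olfr2 is an olfactory receptor, whose role in the recruitment of monocytes is the question of the study. There were 4 KO and 4 WT RNA-seq libraries, and all 8 shared tissue, sorted cell and day. How the Olfr2 allele was made, the strain, age and sex of the mice and how the aneurysm was induced are not stated in the labels. Nothing in the labels ties each library to an animal of its own, and p-values here measure only the spread between these libraries, which may be technical. The members were the rows of the count table named Slfn1, Slfn2, Slfn3, Slfn4, Slfn5, Slfn8 and Slfn9, 7 of 56748 listed genes. The family was selected on the KO to WT change of Slfn5, which was lower in KO, so the genotype difference of Slfn5 is given as a description without a test.

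Schlafen proteins take their name from the German verb for sleeping, after their discovery as genes that change when developing T cells leave or enter a resting state. All share an N-terminal Schlafen core, which in several members binds or cuts transfer RNA, and the long members carry a further helicase-like region at the C-terminus. Many are induced by type I interferon and by microbial stimuli. In mice, loss of Slfn2 leaves T cells and inflammatory monocytes unable to stay quiescent, which makes the family of interest in this cell type.

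All 7 members lie together on GRCm38 chromosome 11, between 82951349 and 83215154, a stretch of 263.8 kb. By coding length in the GENCODE M21 annotation they form a short, an intermediate and a long class. Slfn1 and Slfn2 are short, with 337 and 378 codons. Slfn4 and Slfn3 are intermediate, with 602 and 640 codons. Slfn5, Slfn8 and Slfn9 are long, with 884, 910 and 910 codons. Slfn5 (82951349 to 82964840, plus strand) lies at one end of the cluster, followed by Slfn9 (82978390 to 82991830) and Slfn8 (83002158 to 83020810) on the minus strand. Slfn2 (83065112 to 83070678), Slfn1 (83116849 to 83122670), Slfn4 (83175186 to 83190216) and Slfn3 (83191330 to 83215154) follow on the plus strand.

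The sequences upstream of the genes were compared because many Schlafen genes respond to interferon. For each gene the 250 bases before the transcription start were taken from RefSeq (GRCm38.p6), which held an entry for all 7 members. The windows were searched on both strands for a GAAA repeat, that is GAAA, any 2 bases and GAAA again, the core of the interferon-stimulated response element bound by interferon regulatory factors. A match was found in Slfn5, Slfn8 and Slfn9 and in none of the 4 other members, while 2.98% of 32851 upstream windows of the same length over all genes held one. The TTCNNNGAA core of the interferon-gamma activated site was found in no member and in 7.02% of all windows. The windows of the long members are shown with the match to the GAAA repeat, or its reverse complement, in capitals. They lie at chr11:82951852-82952101 on the plus strand for Slfn5, and on the minus strand at chr11:83020811-83021060 for Slfn8 and chr11:82991831-82992080 for Slfn9.
Slfn5: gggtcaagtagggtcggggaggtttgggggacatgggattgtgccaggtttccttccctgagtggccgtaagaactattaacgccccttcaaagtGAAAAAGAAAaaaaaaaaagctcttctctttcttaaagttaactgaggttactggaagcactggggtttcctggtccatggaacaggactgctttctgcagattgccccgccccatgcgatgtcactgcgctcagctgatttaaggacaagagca
Slfn8: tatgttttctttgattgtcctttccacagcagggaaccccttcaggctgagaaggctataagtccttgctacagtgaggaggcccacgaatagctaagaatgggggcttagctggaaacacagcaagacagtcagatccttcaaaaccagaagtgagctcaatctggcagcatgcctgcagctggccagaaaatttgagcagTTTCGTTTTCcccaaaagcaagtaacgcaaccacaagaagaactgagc
Slfn9: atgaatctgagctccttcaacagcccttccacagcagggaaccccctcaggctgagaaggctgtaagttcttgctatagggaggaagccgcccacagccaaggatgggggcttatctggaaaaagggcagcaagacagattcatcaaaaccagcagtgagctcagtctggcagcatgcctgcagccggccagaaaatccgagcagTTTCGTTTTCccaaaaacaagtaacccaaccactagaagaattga
In Slfn5 the match lies 155 to 146 bases before the start and runs into a row of adenines. In Slfn8 it lies 48 to 39 bases before the start and in Slfn9 45 to 36, with the same letters in both. The Slfn8 and Slfn9 windows shared 80.2% of their bases in a global alignment, gaps counted as differences. RefSeq lists a further start for Slfn8 nearer the gene body, whose window holds the same match 136 to 127 bases before it. The Slfn5 start of RefSeq lies inside the gene as GENCODE draws it.

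The short and intermediate members shared another stretch, which was noticed on reading the windows and not searched for beforehand. ACTTCCTG, or its reverse complement, was present within the 250 bases in Slfn1, Slfn2, Slfn3 and Slfn4 and in none of the 3 long members, against 2.69% of all windows. It contains the core recognised by ETS family transcription factors. The 80 bases from 100 to 21 before the start are shown, all on the plus strand of GRCm38.p6, with the matches in capitals. They lie at chr11:83116720-83116799 for Slfn1, chr11:83065012-83065091 for Slfn2, chr11:83191230-83191309 for Slfn3 and chr11:83175086-83175165 for Slfn4.
Slfn1: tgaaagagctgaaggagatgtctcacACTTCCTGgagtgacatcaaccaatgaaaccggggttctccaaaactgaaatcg
Slfn2: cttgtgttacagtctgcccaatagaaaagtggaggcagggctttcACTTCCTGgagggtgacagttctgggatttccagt
Slfn3: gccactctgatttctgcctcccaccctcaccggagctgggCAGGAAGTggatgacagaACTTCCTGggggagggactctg
Slfn4: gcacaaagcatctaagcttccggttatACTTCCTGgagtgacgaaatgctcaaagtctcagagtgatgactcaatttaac
Slfn3 held the stretch in both orientations. A match of letters is a description of these windows and does not show that a factor binds there.

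The data behind these genes were raw counts, with 17258427 to 21728794 counts per KO library and 16111725 to 19048245 per WT library. Olfr2 had 0 counts in all 8 libraries, which allows at most 0.138 to 0.174 CPM (counts scaled to the library total) in KO and 0.157 to 0.186 CPM in WT, for counting error only, so it could not check the genotype labels. Markers of classical monocytes summed to 148338 to 174124 CPM in KO and 132022 to 146206 CPM in WT, and all 13 were above 1 CPM on average. T cell markers, which matter because T cells express several Schlafen genes, summed to 1.27 to 2.46 CPM in KO and 1.18 to 2.11 CPM in WT, with 0 of 13 above 1 CPM on average. Nonclassical monocyte markers summed to 158 to 254 CPM in KO and 257 to 351 CPM in WT. NK cell markers summed to 2.46 to 3.75 CPM in KO and 1.15 to 2.47 CPM in WT, with Ncr1 and Klra8 at 0. Of these 8 genes only Nkg7 averaged above 1 CPM, at 1.61 ± 0.72 CPM in KO and 0.44 ± 0.05 CPM in WT (SD, n = 4 each), and it was called higher in KO (log2 change 1.92 ± 0.41 SE, edgeR adjusted p = 0.0433). This call was lost with limma-voom and without KO 2, KO 3, WT 1, WT 3 or WT 4. In each of these fits 0 genes were called higher. Ighm and Cd79b were the 2 of 9 B cell markers above 1 CPM, with Pax5 and Ebf1 at 0, and the list summed to 195 to 367 CPM in KO and 181 to 398 CPM in WT. Of 7 plasmacytoid dendritic cell markers 1 was above 1 CPM, with Siglech and Klk1 at 0. Neutrophil markers were uneven and summed to 2373, 3512, 836 and 627 CPM in KO 1 to 4, against 287 to 659 CPM in WT. Of these, S100a8 had 770, 1463, 74.9 and 39.2 CPM in KO 1 to 4 and 23.7 to 48.6 CPM in WT. Mmp8 had 681, 757, 647 and 510 CPM in KO 1 to 4 and 224 to 555 CPM in WT. Csf3r was lower in KO 1 and KO 2 (28.4 and 29.4 CPM) than in KO 3 and KO 4 (46.1 and 41.9 CPM). Conventional dendritic cell markers summed to 111, 81.5, 539 and 488 CPM in KO 1 to 4, against 229 to 478 CPM in WT. Most of this was Cd209a, at 67.6, 47.3, 467 and 419 CPM in KO 1 to 4 and 168 to 409 CPM in WT. Numbers in the column names of the count table divide the libraries into a 1700 series, replicates 3 and 4 of each genotype, and a 1600 series, replicates 1 and 2. The labels do not explain these numbers.

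Levels of the members lay far apart. On a length-adjusted scale, TPM (the share of a library's transcripts), Slfn2 was the most abundant member, at 2314 ± 200 TPM in KO and 2455 ± 141 TPM in WT (SD, n = 4 each). It ranked between 42 and 58 among all genes in the KO libraries and between 41 and 50 in the WT libraries. Slfn1 followed at 303 ± 74.4 TPM in KO and 339 ± 74.1 TPM in WT. Together these short members made up nearly all of the family's transcripts: Slfn2 held 88.3% ± 1.81 in KO and 87.5% ± 2.61 in WT of the summed TPM of the 7 members, and Slfn1 held 11.4% ± 1.79 in KO and 12.1% ± 2.53 in WT. All other members were below 10 TPM.

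Among the scarce members the order differed between genotypes. In KO the order was Slfn8 (2.89 ± 0.95 TPM), Slfn3 (1.80 ± 0.43), Slfn4 (1.51 ± 0.23) and Slfn5 (1.29 ± 0.03), and each overlapped its neighbour in range. In WT, Slfn8 (4.69 ± 1.10 TPM) and Slfn5 (4.48 ± 1.79) overlapped and lay apart from Slfn4 (1.63 ± 0.30) and Slfn3 (1.45 ± 0.35), which overlapped each other. Slfn9 was lowest in both, at 0.08 ± 0.03 TPM in KO and 0.24 ± 0.09 TPM in WT. Slfn5 was therefore the last but 1 of the 7 in KO, where it stood below Slfn4 in 3 of 4 libraries, and above Slfn4 in 4 of 4 WT libraries.

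**Figure D1:**
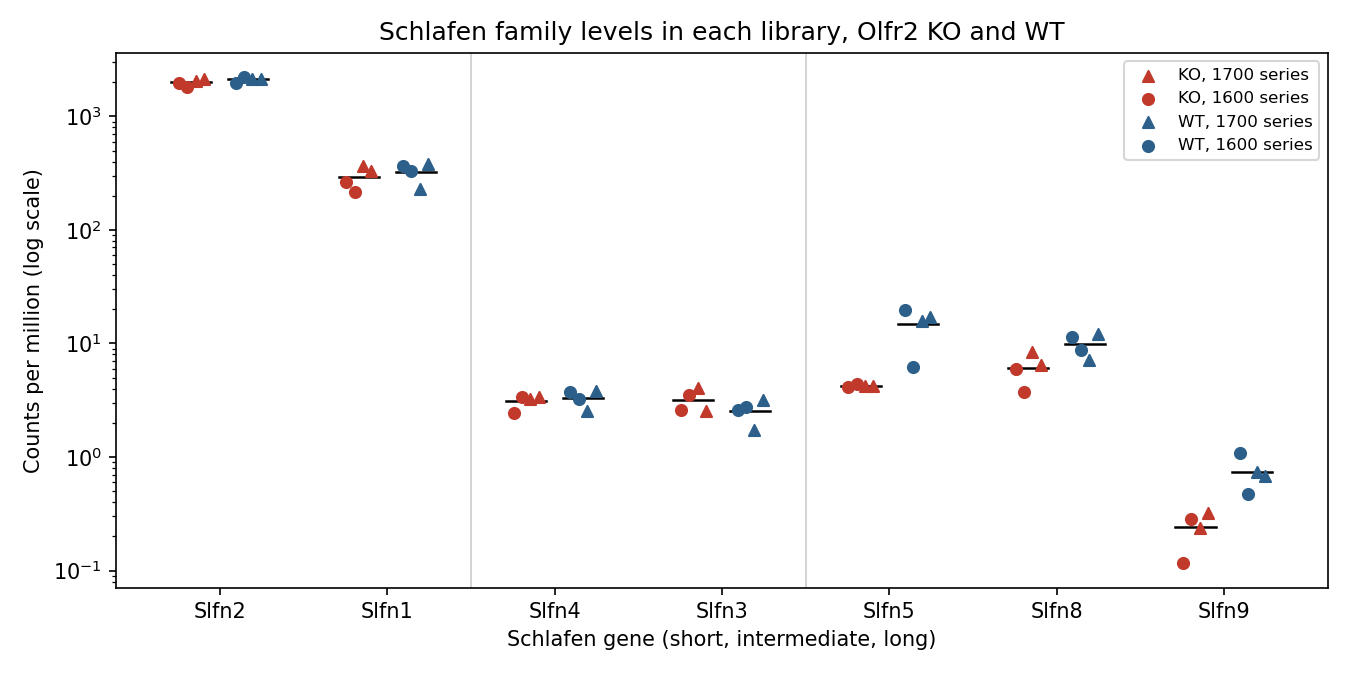
CPM (log axis) of the 7 Schlafen genes in each KO library (red) and WT library (blue). Circles mark the 1600 and triangles the 1700 number series, and black lines are group means; Slfn5 lies between 4.17 and 4.37 CPM in KO and between 6.25 and 19.8 CPM in WT.

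Slfn5 was the member with the largest genotype difference. Human SLFN5, its counterpart, is a nuclear protein described as a modulator of interferon-dependent transcription and as a restriction factor of herpesviruses. It had 72, 77, 90 and 91 counts in KO 1 to 4, against 364, 119, 300 and 274 counts in WT 1 to 4. Scaled to library size this was 4.17, 4.37, 4.26 and 4.19 CPM in KO, against 19.8, 6.25, 15.8 and 17.01 CPM in WT. All 4 KO libraries lay below all 4 WT libraries, as in 972 of 11222 tested genes (8.66%). WT 2 was the WT library nearest to the KO libraries. The log2 change was -1.72 ± 0.30 (SE, edgeR), and 38 of 11222 tested genes (0.339%), Slfn5 among them, had a change at or below it. In a bulk sample fewer cells that express a gene and less of its RNA per cell cannot be told apart. Nonclassical monocyte markers moved in the same direction, with a summed level lower in every KO library (158 to 254 CPM) than in any WT library (257 to 351 CPM). Treml4, the largest part of that sum at 119 CPM in KO and 139 CPM in WT on average, did not pass (-0.14 ± 0.17 SE, edgeR adjusted p = 0.667). Of the 10 tested markers, 9 were negative, beside 50.4% of all tested genes, with a median log2 change of -0.49. Only Pou2f2 was called lower (-3.76 ± 0.46 SE, edgeR adjusted p = 0.0170), beside 0.838% of all tested genes. Pou2f2 was at 0.13 ± 0.08 CPM in KO, where 3 counts make 0.138 to 0.174 CPM, and at 1.91 ± 0.52 CPM in WT (SD). Its call was lost with limma-voom and without KO 2, KO 3, WT 1 or WT 3, where 0 genes were called. The part of the nonclassical monocyte markers in the Slfn5 difference was not tested.

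The coefficient of variation of Slfn5 was 2.17% in KO, beside 11.01% for counting error at that depth, and 40.04% in WT, beside 6.15% for counting error. The WT value rests on WT 2, without which it was 11.8%, a value computed after seeing the data, and the difference in spread was not tested. For Slfn2 the coefficients of variation were 6.91% in KO and 5.29% in WT, and for Slfn1 22.7% in KO and 21.01% in WT.

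The low Slfn5 level was present in both number series. Among the 1700 libraries, KO was at 4.26 and 4.19 CPM and WT at 15.8 and 17.01 CPM, a log2 change of -1.98 ± 0.23 (SE). Among the 1600 libraries, KO was at 4.17 and 4.37 CPM and WT at 19.8 and 6.25 CPM, a change of -1.45 ± 0.55. The genotype difference did not differ between the series past the threshold (edgeR interaction -0.54 ± 0.62, 1700 minus 1600, adjusted p = 0.732). With offsets for transcript length and GC content in each library the log2 change was -1.59 ± 0.28, beside -1.72 without them. The longest Slfn5 transcript has 5979 bases, longer than 88.7% of tested genes, and among tested genes in the top 10% by transcript length the median log2 change was -0.34.

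Slfn5 was among the 94 genes called lower at an adjusted p of 0.05, 0.838% of those tested, which is the result that chose the family. It was called in 9 of 20 alternative fits, and leaving out KO 1, KO 2, KO 3, WT 1, WT 3 or WT 4, each in turn, ended the call with log2 changes between -1.76 and -1.57. The call was also lost with limma-voom (-1.58), with offsets for length and GC content (-1.59) or length alone (-1.498), within the 1600 series (-1.45) and without KO 1 and KO 2 (-1.76). All these fits reuse libraries that chose the family, so they describe the call and are no test of the change. An antisense gene, Slfn5os, overlaps 559 of the 6326 exonic bases of Slfn5 (8.8%). It had 0 counts in all 8 libraries, but since the strand setting of the counting is not stated, reads over the shared bases cannot be assigned to either strand.

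Slfn8, another long member, was lower in KO on average but did not pass the test. It had 102, 66, 177 and 140 counts in KO 1 to 4, against 210, 168, 137 and 197 counts in WT 1 to 4. These were 5.91, 3.75, 8.38 and 6.44 CPM in KO and 11.4, 8.82, 7.21 and 12.2 CPM in WT. The groups overlapped, since KO 3 lay above WT 3. The log2 change was -0.63 ± 0.23 (SE, edgeR adjusted p = 0.159), and it was negative in all 20 alternatives, from -0.91 to -0.37. Within the 1700 series it was -0.40 ± 0.30 and within the 1600 series -0.91 ± 0.30, with an interaction of 0.50 ± 0.44 (edgeR adjusted p = 0.624).

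Slfn9, the remaining long member, was scarce. It had 2, 5, 5 and 7 counts in KO 1 to 4, against 20, 9, 14 and 11 counts in WT 1 to 4, or 0.12, 0.28, 0.24 and 0.32 CPM in KO and 1.09, 0.47, 0.74 and 0.68 CPM in WT. Every KO library lay below every WT library, as in 972 of 11222 tested genes (8.66%), while 2.81% had every KO library above every WT library. The share among genes as scarce as Slfn9 was not computed, as Slfn9 did not pass the filter on low counts. It therefore has no value in the fit of tested genes. Without the filter its log2 change was -1.52 ± 0.58 (SE, edgeR adjusted p = 0.132). Slfn9 shares sequence with its relatives: 6.24% of the 50-base windows of its longest transcript also occur in Slfn8 transcripts and 8.44% in those of the pseudogene Slfn10-ps, so that a part of its few counts could not be placed with certainty.

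The summed level of the long members was 4.05, 3.11, 5.42 and 4.46 TPM in KO 1 to 4, against 12.1, 6.44, 8.23 and 10.9 TPM in WT 1 to 4, with no overlap. This sum holds Slfn5, the gene that chose the family, and is a description.

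The short members differed little between genotypes. Slfn2, whose product in mouse T cells protects transfer RNA from cleavage by angiogenin, had 1979.5, 1820.1, 2044 and 2150.3 CPM in KO 1 to 4, against 1951, 2208, 2154 and 2141 CPM in WT 1 to 4. The groups overlapped, and the fitted difference was -0.01 ± 0.11 on the log2 scale (SE, edgeR adjusted p = 0.970). Each library held at least 32036 counts of it, and counting error came to about 0.51% in KO and in WT, well below the spread between libraries. Slfn1, which slows growth of mouse T cells when overexpressed, had 263, 215, 364 and 328 CPM in KO 1 to 4, against 365, 330, 229 and 383 CPM in WT 1 to 4. Its log2 change was -0.09 ± 0.17 (edgeR adjusted p = 0.796), and the groups overlapped. In the 1700 series the KO libraries lay between the WT libraries (0.16 ± 0.22), and in the 1600 series both KO libraries lay below both WT libraries (-0.38 ± 0.14). The interaction, 0.53 ± 0.28, did not pass (edgeR adjusted p = 0.389).

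The intermediate members did not pass either. Slfn4, which is induced in mouse macrophages by interferon and Toll-like receptor ligands, had 2.43, 3.35, 3.27 and 3.41 CPM in KO 1 to 4, against 3.70, 3.25, 2.53 and 3.85 CPM in WT 1 to 4. The groups overlapped, and the log2 change was -0.02 ± 0.22 (SE, edgeR adjusted p = 0.975). Slfn3, studied mainly in T cells and the gut of rodents, had 2.61, 3.52, 4.07 and 2.53 CPM in KO 1 to 4, against 2.61, 2.73, 1.74 and 3.17 CPM in WT 1 to 4. It was the only tested member with a positive log2 change in the fit of all libraries, 0.39 ± 0.25 (edgeR adjusted p = 0.393), and the groups overlapped. With 33 to 86 counts per library, counting error alone came to about 12.7% in KO and 14.7% in WT for Slfn3, so that small differences were not detectable. Of its 50-base windows 7.97% also occur in Slfn4 transcripts.

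In all, 6 of the 7 members passed the filter on low counts, and 1 of them, Slfn5, was called, against 1.06% of all 11222 tested genes (119, of which 25 higher and 94 lower). As Slfn5 chose the family, nothing can be read from that count. By class, the log2 changes were -1.72 and -0.63 for the tested long members, -0.09 and -0.01 for the short and -0.02 and 0.39 for the intermediate members, beside a median of 0.00 over all tested genes, of which 5661 (50.4%) were negative. The members with a GAAA repeat in the window shown had KO to WT ratios of mean CPM of 0.29 (Slfn5), 0.32 (Slfn9) and 0.62 (Slfn8), and the ratios of the others lay between 0.89 and 1.24. The members with the repeat are also the long members at the Slfn5 end of the cluster, so repeat, length and position cannot be told apart. With 7 genes, chosen with these values known, the comparison of ratios is a description.

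**Figure D2:**
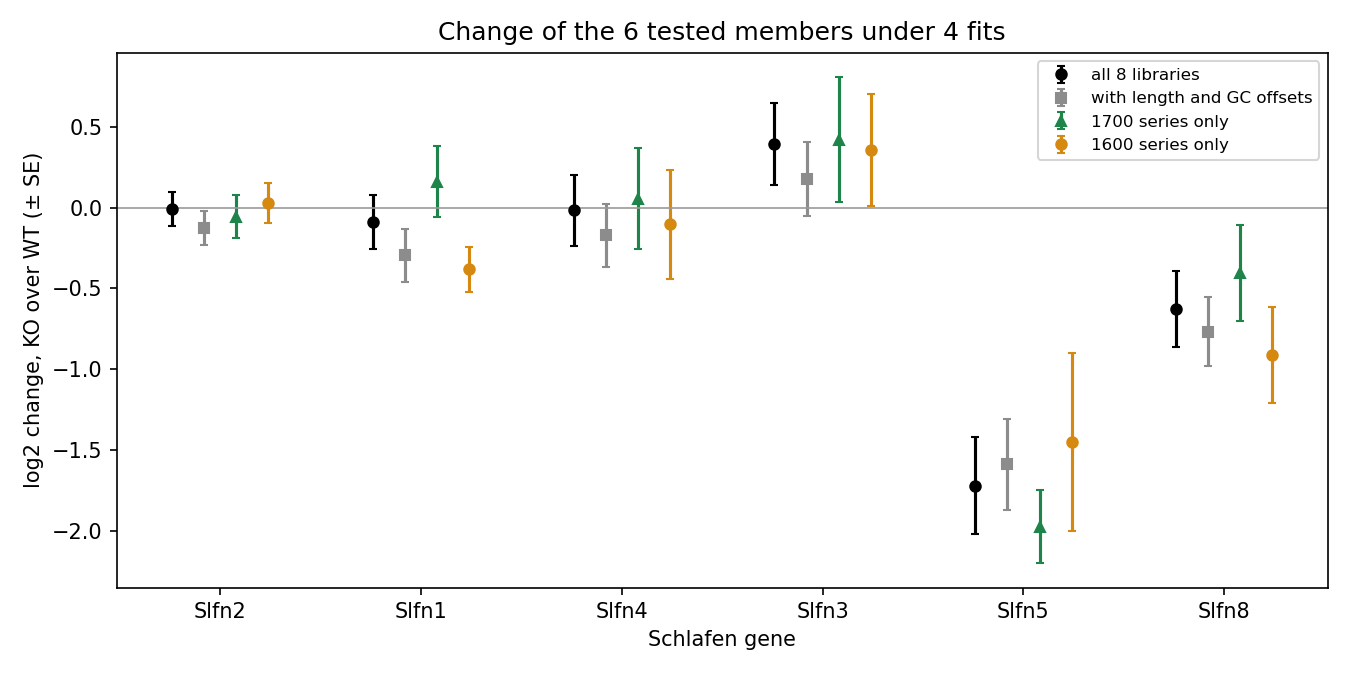
Log2 change, KO over WT, with SE for the 6 tested members: all 8 libraries, the same with length and GC offsets, and each number series alone. Slfn5 is at -1.72, -1.59, -1.98 (1700) and -1.45 (1600), while Slfn2 stays within 0.13 of 0 in all 4.

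Along the cluster, Slfn5 and Slfn9, at one end, had lower values in every KO library than in any WT library, and Slfn8 next to them was lower on average. Such a separation held for 8.66% of all tested genes, which do not include Slfn9. Slfn5 chose the family and Slfn9 did not pass the filter on low counts, so this is a description. Slfn10-ps, a pseudogene further along, had 1 to 6 counts per KO library and 1 to 4 per WT library. Gm20234, a non-coding gene antisense to Slfn2 that shares no exonic base with it, had 0.58 CPM in KO and 0.98 CPM in WT on average (log2 change -0.67 ± 0.47 SE, edgeR adjusted p = 0.437). Beyond Slfn3 the neighbouring transcript AI662270 was at 130 CPM in KO and 127 CPM in WT (0.11 ± 0.12, adjusted p = 0.620). On the Slfn5 side the neighbour is the muscle chaperone gene Unc45b, with 2 counts in the 8 libraries together. Slfn14, whose product is a ribosome-associated endoribonuclease first described in rabbit reticulocytes, and Slfnl1 on chromosome 4 had 0 counts in all 8 libraries, which allows up to 0.138 to 0.186 CPM.

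**Figure D3:**
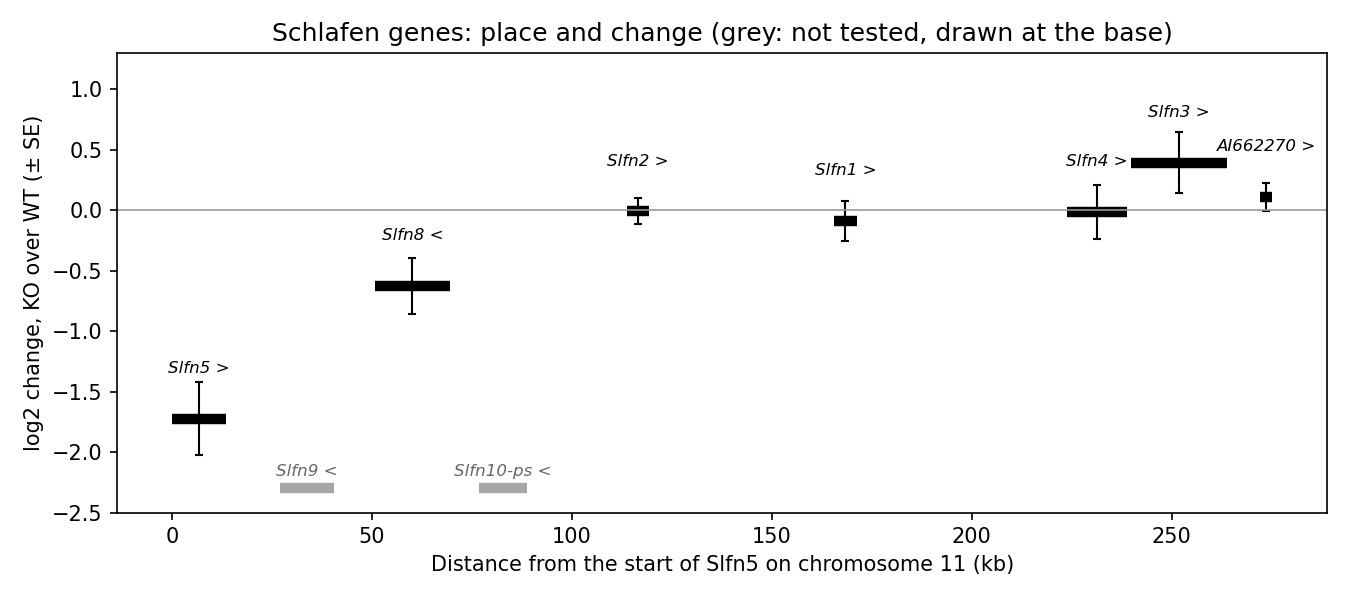
Position of Schlafen genes along chromosome 11, in kb from the start of Slfn5, against log2 change, KO over WT. Bars span the gene, thin lines are SE, > and < mark the plus and minus strand, and genes that did not pass the filter are grey at the base; Slfn5 and Slfn8, at -1.72 and -0.63, lie at one end, and Slfn2, Slfn1, Slfn4 and Slfn3 lie near or above 0.

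The number series of the libraries offered a comparison that did not enter the choice of the family. Between the 1700 and the 1600 series, with genotype in the model, 0 of 6 tested members were called (edgeR, adjusted p of 0.05), and 0 of 6 had an unadjusted p under 0.05 with edgeR, DESeq2 or limma-voom. Over all genes 0 of 11222 (0%) were called with edgeR, 583 (5.2%) had an unadjusted p under 0.05, and 35 were called with DESeq2 and 0 with limma-voom. The members' log2 changes lay between -0.01 (Slfn3) and 0.28 (Slfn8). Within the KO libraries alone Slfn1 was higher in the 1700 series by 0.47 ± 0.12 (SE, edgeR adjusted p = 0.0739). For the interaction of genotype and series, 0 of 6 members passed with edgeR or limma-voom, and 0 had an unadjusted p under 0.05. Of all tested genes 0.784% passed there with edgeR, 0.312% higher and 0.472% lower.

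Within a genotype some members varied together, but not the whole family. Over the 8 libraries, with log2 CPM centred on the mean of each genotype, Slfn1 and Slfn8 had a Pearson r of 0.93, with both genes lowest in KO 2 and highest in KO 3 among KO, and lowest in WT 3 and highest in WT 4 among WT. Neutrophil marker sums were highest in KO 2 among KO (3512 CPM) and lowest in WT 3 among WT (287 CPM), so that both genes were lowest where this sum was highest in KO and where it was lowest in WT. Different markers made up this sum in the 2 libraries. S100a8 was at 1463 CPM in KO 2 and 23.7 CPM in WT 3, and Mmp8 at 757 and 224 CPM. Conventional dendritic cell marker sums were lowest in KO 2 (81.5 CPM) and highest in KO 3 (539 CPM), like both genes, but lowest in WT 4 (229 CPM), where both genes were highest. Cd209a made up most of this sum, at 47.3 CPM in KO 2, 467 CPM in KO 3 and 172 CPM in WT 4. The sum thus largely follows that gene. The part of either cell type was not tested. Slfn3 and Slfn4 had r = 0.69, and share sequence as given above. The remaining pairs among Slfn1, Slfn3, Slfn4 and Slfn8 had r between 0.27 and 0.52. Slfn2 had r between -0.41 and -0.08 with the 5 other tested members. Slfn5 had r between -0.14 and 0.22 with the 5 other tested members. These values rest on 8 libraries that share depth and composition and are descriptions.

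The genes whose centred levels were most like Slfn5 over the 8 libraries were Hscb (r = 0.995), Serf1 (0.990), Comtd1 (0.986), Katnip (0.984) and Ppp1r11 (0.984). Their KO to WT log2 changes were 0.11, 0.66, -0.13, -0.23 and 0.18, with edgeR adjusted p-values between 0.434 and 0.815. Since Slfn5 hardly varied among KO libraries, this likeness is set by the 4 WT libraries, where WT 2 was low. None of the 5 is on the list of interferon-stimulated genes described next, but that list holds only 45 of 11222 tested genes. Little can therefore be read from the absence.

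Interferon signalling genes were compared because several Schlafen genes respond to interferon. The list held 20 genes, of the interferon receptors, JAK kinases, STATs, interferon regulatory factors and the inhibitors Socs1, Socs3 and Usp18. Of these, 16 had a negative log2 change in KO, with a median of -0.28 beside 0.00 for all tested genes. Socs1 had the lowest change of the 20, at -1.22 ± 0.40 (SE, edgeR adjusted p = 0.119). Without KO 1 and KO 2, 12 were negative and the median was -0.08. Within the 1700 series 11 were negative with a median of -0.09, and within the 1600 series all 20 with a median of -0.46. With edgeR 0 passed and 5 of 20 had an unadjusted p under 0.05, as had 20.9% of all tested genes. DESeq2 called 3 lower, where it called 4.09% of all genes lower and 2.9% higher, and limma-voom called 0. Stat2, a subunit of the complex that binds the response element, was at 3.07 ± 1.13 CPM in KO and 6.76 ± 1.40 CPM in WT (SD, n = 4 each; log2 change -1.06 ± 0.26 SE, edgeR adjusted p = 0.0611). Its partner Irf9, at -0.04 ± 0.15 (adjusted p = 0.889), did not pass. Irf7, itself induced by interferon, was at -0.70 ± 0.18 (adjusted p = 0.0740).

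Of 45 interferon-stimulated genes outside the family, 40 had a negative change and 4 were called lower, with a median of -0.30, where 0.838% of all tested genes were called lower. These were Oas3, the sensor of double-stranded RNA (-1.37 ± 0.23 SE, edgeR adjusted p = 0.0341), Parp14, an ADP-ribosyltransferase (-1.10 ± 0.23, adjusted p = 0.0453), Tap1, a peptide transporter for MHC class I (-0.94 ± 0.16, adjusted p = 0.0341), and Bst2, the gene of tetherin (-0.71 ± 0.14, adjusted p = 0.0377). Slfn5 lay below all 45 in the fit of all libraries. As its fall chose the family, its rank against the list is a description. The 4 calls were lost with limma-voom, with offsets for length and GC content and within each number series. They were also lost when KO 2, KO 3, WT 1, WT 3 or WT 4 was left out. The call of Parp14 was lost without KO 1 and with the length offset alone as well. In the fit without KO 1 and KO 2 the list had 21 negative and 24 positive members and a median of 0.01, 0 of the list genes were called, and Slfn5 was at -1.76 ± 0.42.

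The list and Slfn5, whose fall chose the family, were then set side by side within each number series. This is a description without a test of the list. Within the 1700 series 16 of 45 were negative and 29 positive, with a median of 0.13, and 0 lay below Slfn5. Within the 1600 series 44 of 45 were negative, with a median of -0.70, and 6 lay below Slfn5. Slfn5 itself was at -1.98 in the 1700 and -1.45 in the 1600 series. Ifit1, a sensor of foreign RNA caps named as the gene furthest up in the 1700 series, was at 1.52 in the 1700 and -1.49 in the 1600 series. The 4 genes called over all libraries were negative in both, with Oas3 at -1.51 and -1.23, Parp14 at -1.27 and -0.92, Tap1 at -0.72 and -1.16 and Bst2 at -0.72 and -0.70 in the 1700 and 1600 series. Slfn8 was at -0.40 and -0.91 in the same order, and Slfn2 at -0.06 and 0.03.

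**Figure D4:**
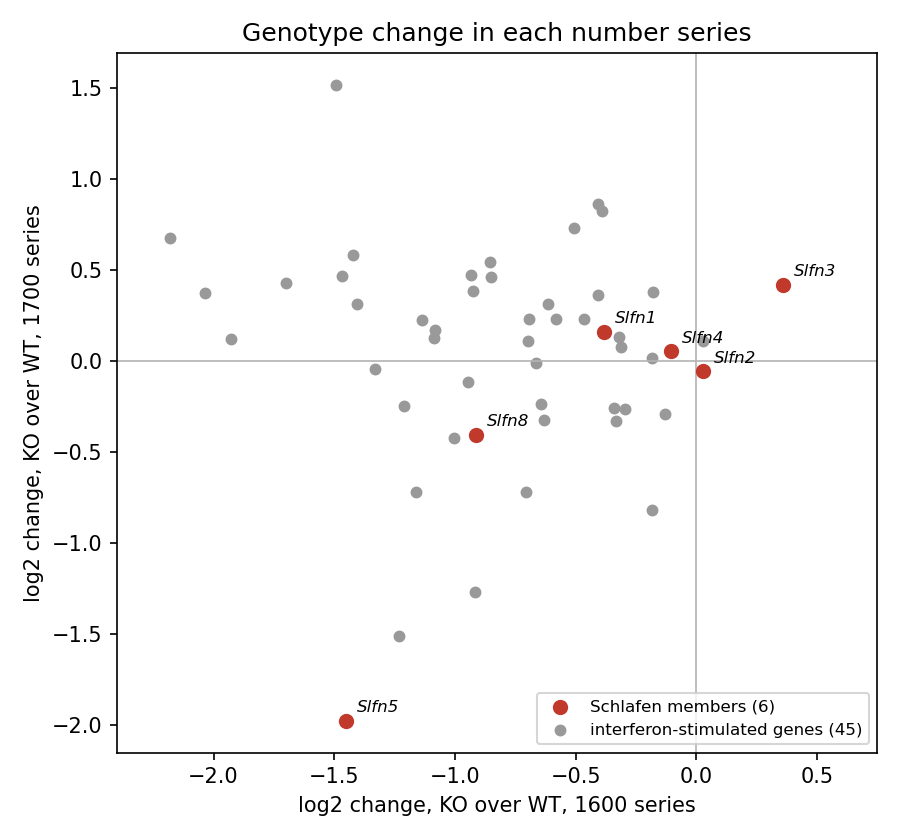
Log2 change, KO over WT, within the 1700 series (y axis) and within the 1600 series (x axis) for 6 Schlafen members (red) and 45 interferon-stimulated genes (grey), each from 2 KO and 2 WT libraries per series. Slfn5, whose fall chose the family, lies at -1.98 and -1.45, below all the grey points on the y axis, where the list's median is 0.13.

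Genes linked to the known actions of Schlafen proteins were listed as well. Of 13 tested RNA-targeting effectors and genes of transfer RNA cleavage, 8 were positive and 5 negative, with a median of 0.01. With edgeR 0 passed and 0 had an unadjusted p under 0.05, and DESeq2 and limma-voom called 0. Ang, the gene of angiogenin, was at 0.22 ± 0.15 (SE, edgeR adjusted p = 0.436) and its inhibitor Rnh1 at 0.20 ± 0.16 (adjusted p = 0.504).

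Of 17 quiescence genes 13 were negative, with a median of -0.25. With edgeR 0 passed and 5 of 17 had an unadjusted p under 0.05, beside 20.9% of all tested genes, and DESeq2 called 3 lower, beside 4.09%, and limma-voom 0. Foxp1, which holds naive T cells in quiescence, was at -0.996 ± 0.22 (SE, edgeR adjusted p = 0.0511) and Klf4, a factor of monocyte differentiation, at -1.30 ± 0.32 (adjusted p = 0.0611). Of 26 tested proliferation genes 24 were positive, with a median of 1.74 over all libraries and 0.98 without KO 1 and KO 2. With edgeR 0 passed and 22 of 26 had an unadjusted p under 0.05, beside 20.9% of all tested genes, while DESeq2 called 18 higher, beside 2.9%, and limma-voom 0. Bub1, a kinase of the spindle checkpoint, had 1.85, 5.45, 2.23 and 0.64 CPM in KO 1 to 4, against 0.27, 0.63, 0.21 and 0.06 CPM in WT 1 to 4 (edgeR adjusted p = 0.0596). It was highest in KO 2, the library with the highest neutrophil marker sum, whose part was not tested. Slfn2, the member tied to monocyte quiescence, was at -0.01 ± 0.11 in the same fit.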

How the data were processed

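RNA from sorted cells was made into cDNA by oligo-dT priming and template switching (SMART-Seq v4), per the labels' protocols, which can make recovery depend on transcript length. The authors deposited raw counts of 8 libraries. The tools HISAT2 2.0.5 and featureCounts 1.5.0-p3 and the build GRCm38 come from the labels, per the submitters' processing notes, which state neither settings nor strandedness. Counts of PCR reads are not independent molecules.

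Counts were tested with edgeR 4.0.16 in R 4.3.3 (filterByExpr, TMM, quasi-likelihood, Benjamini-Hochberg at 0.05 over 11222 genes). CPM used library totals and TPM the exonic length of GENCODE M21, which held 52073 of 56748 identifiers. Libraries of a genotype differed by more than sampling noise and counted as 1 replicate each. Alternatives used DESeq2 1.42.0, limma 3.58.1 and mgcv 1.9.3 (offsets); the fits were tested on simulated data. Members and lists were chosen with earlier results of these data known. Named were the family, neighbours, the 5 genes most like Slfn5 and up to 3 genes per list by p-value where a result turned on them. Irf9, Socs3, Usp18, Ifit1, Parp14, Ang, Rnh1 and Gm20234 were added by function or after their values were seen. The series as a comparison within 1 genotype, the length offset alone and ACTTCCTG were added after seeing the data.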

Additional observations from a re-analysis of the deposited data

Results flagged for a closer look

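In a check of 36 groups of 4 libraries, covering the 7 members and 11 marker sums, a library stood far from the other 3 of its genotype in 2 groups, where chance gives about 1.8. The Slfn4 level of KO 1 was low, at 2.43 CPM. The sum of erythroid markers in KO 3 was high, at 26.9 CPM.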

How the results depend on the processing

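The log2 change of Slfn5 in KO lay between -1.98 and -1.45 in 20 alternatives, and between -1.98 and -1.57 when single libraries were left out. Slfn3 stayed positive and Slfn8 negative in all 20. Slfn1, Slfn2 and Slfn4, close to 0, changed sign: Slfn1 was at 0.16 within the 1700 series and 0.13 without KO 1 and KO 2, Slfn2 at 0.028 within the 1600 series and 0.032 without KO 1 and KO 2, and Slfn4 at 0.055 within the 1700 series and 0.051 without KO 1 and KO 2. With single libraries left out they ranged from -0.21 to 0.016, from -0.060 to 0.026 and from -0.11 to 0.084. None of the 5 members other than Slfn5 was called in any of the 20.

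The count of 119 called genes became 0 with limma-voom, 742 with no filter, 784 with DESeq2, 251 with the number series as covariate, 7 without KO 1 and KO 2, 1 with the offsets, and 0 to 515 without single libraries. The count of 4 called genes of the fixed lists became 0, 15, 29, 16, 0, 0 and 0 to 18 under the same alternatives. It was 11 within the 1600 and 1 within the 1700 series, where none of the 4 genes called over all libraries was among them. With the title numbers as a replicate block 244 genes and 23 list genes were called. Same-numbered libraries had correlations of deviations between -0.05 and 0.09, beside -0.147 to 0.129 for libraries of unlike number. These values showed no pairing by number but cannot exclude it.

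Between the number series 0 genes were called, and 231 with no filter, 35 with DESeq2, 1 without KO 1 and KO 2, 244 within KO, 2 within WT and 0 to 4 without single libraries. There Slfn3 was at 0.0004 with RLE size factors or DESeq2 and 0.037 within KO, Slfn4 at -0.044 without KO 1 and KO 2 and -0.025 within WT, Slfn1 at -0.097 and -0.079 in the same fits, and Slfn5 at -0.081 within KO. Leaving out single libraries gave -0.17 to 0.14 for Slfn3, -0.067 to 0.16 for Slfn4 and -0.13 to 0.54 for Slfn5, lowest without WT 2. The interaction had 88 calls, and 57 with limma-voom. The causes were not tested.

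Depth limits Slfn9, with at most 20 counts per library, and Slfn3 and Slfn4.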
